A study of Mus musculus with 3 samples.

Results

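The genes described here encode the subunits, assembly chaperones and activators of the proteasome. They were chosen by name, as every symbol of the deposited counts that starts with Psm, continues with a letter from a to g and ends in a number. The immunoproteasome genes Psmb8, Psmb9 and Psmb10 were left out. This rule uses no measured value and found 45 of 24421 genes, of which 16 encode parts of the core particle and 17 encode subunits of the regulatory particle. The remaining members comprise 3 assembly chaperones of the regulatory particle, 4 activator subunits, 1 inhibitor and 4 assembly chaperones of the core particle. All 45 passed the filter used below, 10 reads on average per library, as did 16670 genes in total. Their reads ranged from 147 (Psmb11, KD-2) to 52083 (Psmd2, KD-1).

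RNA-Seq was performed on total RNA, depleted of ribosomal RNA, from undifferentiated EL 16.7 cells, a female mouse ES cell line of the background F2:129S1/CastEiJx 129S1. The cells were transduced with lentivirus carrying a control (scramble) shRNA or either of the NUP153-specific shRNAs, giving the control, NUP153 KD-1 and NUP153 KD-2 libraries. All of them, control included, were infected with lentivirus in the presence of Polybrene, selected with 2 μg/ml puromycin for 2 days, and grown with LIF on γ-irradiated fibroblasts (MEFs) from Tg(DR4)1Jae/J mice. There is 1 library per condition, so that differences between libraries have no replicate check, and each knockdown rests on 1 shRNA.

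The proteasome degrades proteins that carry ubiquitin chains. Its core particle is a barrel of stacked rings, in which the outer rings are built of alpha subunits (Psma genes) that gate the entrance and the inner rings of beta subunits (Psmb genes), some of which cut the substrate. The regulatory particle caps the barrel: its base holds a ring of ATPases (Psmc genes) that unfold substrates, and its lid (Psmd genes) removes ubiquitin. Subunits of a particle are built in at equal numbers, and ES cells are known for high proteasome activity.

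Between 69839336 and 85258834 reads were counted on genes in the libraries. Nup153, which both shRNAs target, had 27870 control, 16451 KD-1 and 11126 KD-2 reads, and its log2 ratio to control was -0.99 (KD-1) and -1.43 (KD-2). All ES cell markers checked had reads in every library (the lowest was Utf1, with 127 reads in control), and so did the fibroblast markers. The summed level of 10 ES cell markers was 4786 scaled CPM (control), 5223 (KD-1) and 3525 (KD-2). It is carried by the most abundant of them, and in KD-2 6 of the 10 were lower and 4 were higher (Utf1, Esrrb, Klf4 and Klf2). The summed level of 10 fibroblast markers was 1231 (control), 567 (KD-1) and 2440 (KD-2), and none of them was at 0 reads. Fibroblast markers were thus below control in KD-1 but above it in KD-2. Their part in the results below was not tested. In such bulk libraries, fewer cells of a type and less RNA per cell cannot be told apart.

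Promoters are shown first, with the share of members that hold each of 6 short motifs beside that of all genes. In the RefSeq table of promoters (GRCm38.p6, 250 bases before to 50 bases after the start), 37 of the 45 members were found, and Psma8, Psmb1, Psmb2, Psmb7, Psmc3, Psmd3, Psmd7 and Psmg2 were not. The motif CCGGAAG, which ETS factors bind, was present on either strand in 14 of these 37 members (37.8%), compared to 9.93% of all 27025 genes of the table. It was found in 9 of 14 regulatory particle genes, in 1 of 7 alpha genes and in 0 of 4 beta genes. The motif AAGATGG, which YY1 binds, was present in 7 members (18.9%) and in 7.28% of all genes. CCAAT (NF-Y) was present in 35.1% of members and 41.1% of all genes, GGGGCGGGG (Sp1) in 13.5% and 12.9%, and TGACNNNGC in 16.2% and 14%. TGAGNNNGC was present in 32.4% of members and 19.8% of all genes. The latter pair are spellings of the antioxidant response element, through which NFE2L1 drives proteasome genes. Both strands were searched for each of the 6 motifs, and matches to different motifs overlapped in 1 member promoter, that of Psme4. All genes of the table include genes that did not pass the read filter, which all members passed, and no matched set was compared. A match describes the letters only, and neither a match nor its absence tells of binding.

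The windows below show matches in capitals, with up to 10 bases to either side, read along the strand of the gene. CCAAT is shown for alpha genes, of which 5 of 7 hold it, TGACNNNGC for the genes of catalytic beta subunits, and CCGGAAG, in part on the opposite strand, for regulatory particle genes.
Psma1 (chr7:114276200-114276224, minus strand): gagcttcctgCCAATcccacgttct
Psma2 (chr13:14613178-14613202, plus strand): tgactctcctCCAATcagagcaaag
Psmb5 (chr14:54618024-54618052, minus strand): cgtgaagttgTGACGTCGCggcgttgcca
Psmb6 (chr11:70525338-70525366, plus strand): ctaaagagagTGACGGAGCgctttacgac
Psmc1 (chr12:100110164-100110190, plus strand): ggtggatgcaCTTCCGGcggtggcgat
Psmd2 (chr16:20651616-20651642, plus strand): ccgcagggcgCTTCCGGtctggaggac
Psmd6 (chr14:14120974-14121000, minus strand): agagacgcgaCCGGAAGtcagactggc
Psmd11 (chr11:80428594-80428620, plus strand): gagggcgggtCTTCCGGgtgtgtgttt

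The full promoters of Psma1 and Psmd8 are given because these genes were the lowest and the highest in KD-2 among the members that encode subunits of general proteasomes. Capitals mark any of the motifs above.
Psma1 (chr7:114276067-114276366, minus strand): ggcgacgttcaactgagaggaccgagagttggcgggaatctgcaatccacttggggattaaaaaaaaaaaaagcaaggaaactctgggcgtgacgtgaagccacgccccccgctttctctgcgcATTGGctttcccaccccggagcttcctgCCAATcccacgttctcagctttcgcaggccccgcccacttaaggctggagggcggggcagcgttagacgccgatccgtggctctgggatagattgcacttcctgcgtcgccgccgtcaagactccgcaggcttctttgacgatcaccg
Psmd8 (chr7:29180624-29180923, minus strand): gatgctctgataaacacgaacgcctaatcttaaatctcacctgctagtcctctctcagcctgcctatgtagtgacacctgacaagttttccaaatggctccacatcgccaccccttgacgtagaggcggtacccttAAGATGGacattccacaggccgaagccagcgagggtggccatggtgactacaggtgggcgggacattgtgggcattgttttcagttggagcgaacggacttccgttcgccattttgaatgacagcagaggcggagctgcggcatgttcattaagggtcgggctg

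Proteasome genes took up 0.905% of the reads on genes in control, 0.889% of those in KD-1 and 0.781% of those in KD-2. Levels are given as RPKM, which is CPM after upper-quartile normalization, per kilobase of exon (GENCODE M21). The 14 general core genes had a median of 216 RPKM (control), 207 (KD-1) and 161 (KD-2). The 17 regulatory particle genes had a median of 139 RPKM (control), 143 (KD-1) and 117 (KD-2). In control, the highest member was Psmb6, a catalytic subunit, at 432 RPKM, followed by Psmb3, a structural beta subunit, at 375 RPKM. By this measure, core beta genes spanned 5.85-fold in control, from Psmb1 at 73.9 RPKM to Psmb6, and alpha genes spanned 2.25-fold, from Psma3 at 137 RPKM to Psma4 at 309 RPKM. The low level of Psmb1 rests on its exon length of 3427 bases in the annotation, compared to 766 to 1183 bases for the other beta genes, whose reads in control (12476 to 24092) span the 17693 of Psmb1. Among the ATPases, Psmc4 stood apart at 29.2 RPKM, whereas the others lay between 125 RPKM for Psmc2 and 188 RPKM for Psmc1. Psmc4 had 2943 control, 3798 KD-1 and 2699 KD-2 reads, and shares no 50-base word with the annotated transcripts of another gene.

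Near-identical sequence elsewhere limits these levels. Of the members, 22 share no 50-base word with transcripts of other annotated genes, while 13 share more than 10% of theirs. The share was 55.4% for Psma5, 55.8% for Psmb3, 54.1% for Psmb5 and 54.9% for Psme2, and reads from these stretches could have been left out or assigned to a copy. The exons of Psma4, Psmb5, Psmb7, Psmc3, Psmd13 and Psme1 overlap a further counted gene. Reads of such stretches could not be separated here. The strand counted is not named, and the overlap of Psmb5 is on the same strand.

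**Figure D1:**
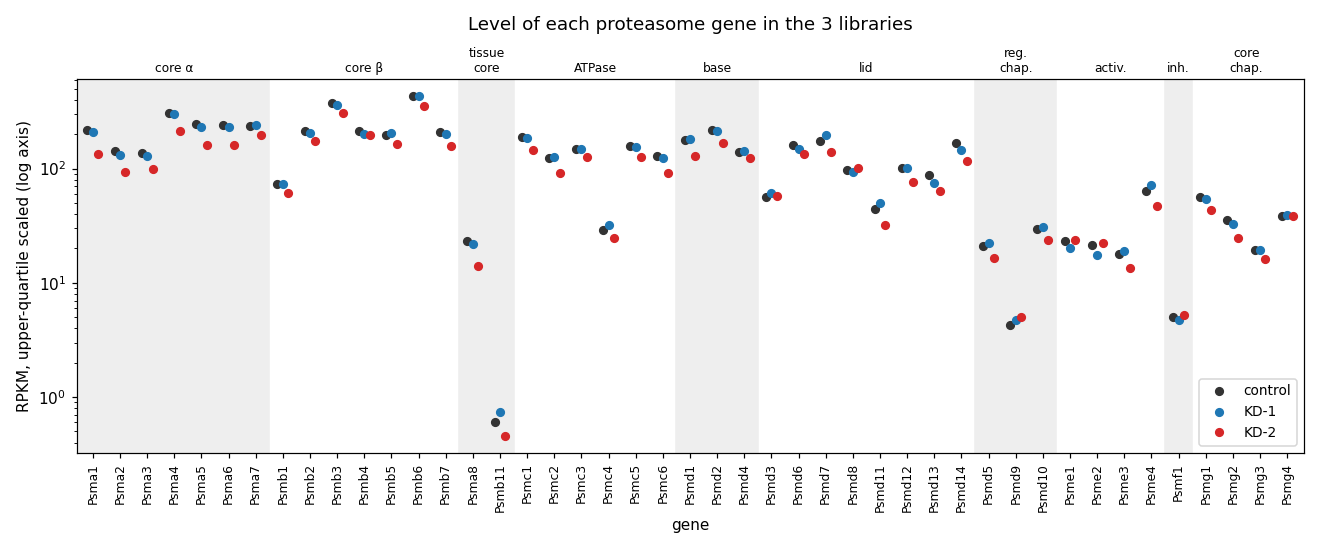
RPKM (log axis) of each of the 45 proteasome genes in the control, KD-1 and KD-2 libraries, grouped by role; each point is 1 library. Psmb6 is the highest at 432 RPKM in control, Psmb11 is the lowest at 0.606 RPKM, and the KD-2 point is the lowest of the 3 for most genes.

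The members with tissue-restricted roles differed in level. Psma8, an alpha subunit used in spermatogenesis, had 2754 control, 3056 KD-1 and 1776 KD-2 reads, which is 23.3 RPKM in control. Psmb11, the catalytic subunit of cortical thymic epithelium, had 180 control, 259 KD-1 and 147 KD-2 reads, or 0.606 RPKM in control. The remaining 43 members lay between 4.24 RPKM, for the chaperone gene Psmd9, and 432 RPKM in control.

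In KD-1, proteasome genes stayed close to control. Their median log2 ratio was -0.023, compared to 0.020 over all 16670 genes, and the members ranged from -0.29 for Psme2 to 0.30 for Psmb11. No member passed a fold change of 1.5 in either direction, whereas 8.58% of all genes were higher and 5.65% were lower by that fold. Beyond a log2 ratio of 0.32 the count of members was still 0 in either direction, compared to 19.1% of all genes higher and 12.8% lower. All genes include many with fewer reads than most members, and thus with wider counting error. No share matched for level was taken, here or for the comparisons below. Of the members, 18 were higher and 27 were lower than control, compared to 47.0% of all genes lower. This split depended on the scaling. Under DESeq2's size factors 9 were higher and 36 lower, while the median of all genes moved to -0.046. The share of all genes lower was not taken under that scaling.

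The highest ratio in KD-1 was that of Psmb11, with a wide interval of 0.02 to 0.58 at its low counts, followed by genes of the lid and an activator. Psmd7, the lid partner of the deubiquitinase, had 19169 control, 25617 KD-1 and 16675 KD-2 reads. Its log2 ratio in KD-1 was 0.19 (95% interval 0.16 to 0.22, covering the counting of reads only). Psme4, a nuclear activator known for its role in histone degradation, had 28752, 38128 and 22973 reads, and was at 0.18 in KD-1. Psmd11, a lid subunit known for its high expression in human ES cells, had 9187, 12080 and 7190 reads, and was at 0.17. In these 3 genes, which were picked for their high ratios in KD-1, the scaled level was highest in KD-1 and lowest in KD-2. Of all 45 members, 39 were below control in KD-2.

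At the low end in KD-1 were Psme2, Psmd13, Psme1 and Psmd14. Psmd13, a lid subunit, had 12240 control, 12073 KD-1 and 9601 KD-2 reads, and its log2 ratio in KD-1 was -0.25 (interval -0.28 to -0.21). Psmd14, the deubiquitinase of the lid, had 17957, 18519 and 13611 reads, and was at -0.18. Both were lower than control in each knockdown library.

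In KD-2, most proteasome genes were lower than control. The median log2 ratio of the members was -0.36, compared to -0.022 over all genes, and 39 of 45 were lower (86.7%, compared to 51.7% of all genes). The counting intervals had a median half-width of 0.033. By a fold change of 1.5, 5 of 45 members were lower and 0 were higher, compared to 10.2% of all genes lower and 17.0% higher. The count of lower members is near that background. Beyond a log2 ratio of 0.32, 23 of 45 members were lower and 0 were higher, compared to 26.9% of all genes lower and 28.7% higher. Library scaling changes these counts: by library totals the median of all genes moved by 0.16, the median of the members was -0.20, and 0 members passed 1.5-fold. Relative to the median of all genes, which cancels the scaling, the median of the members was -0.33.

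**Figure D2:**
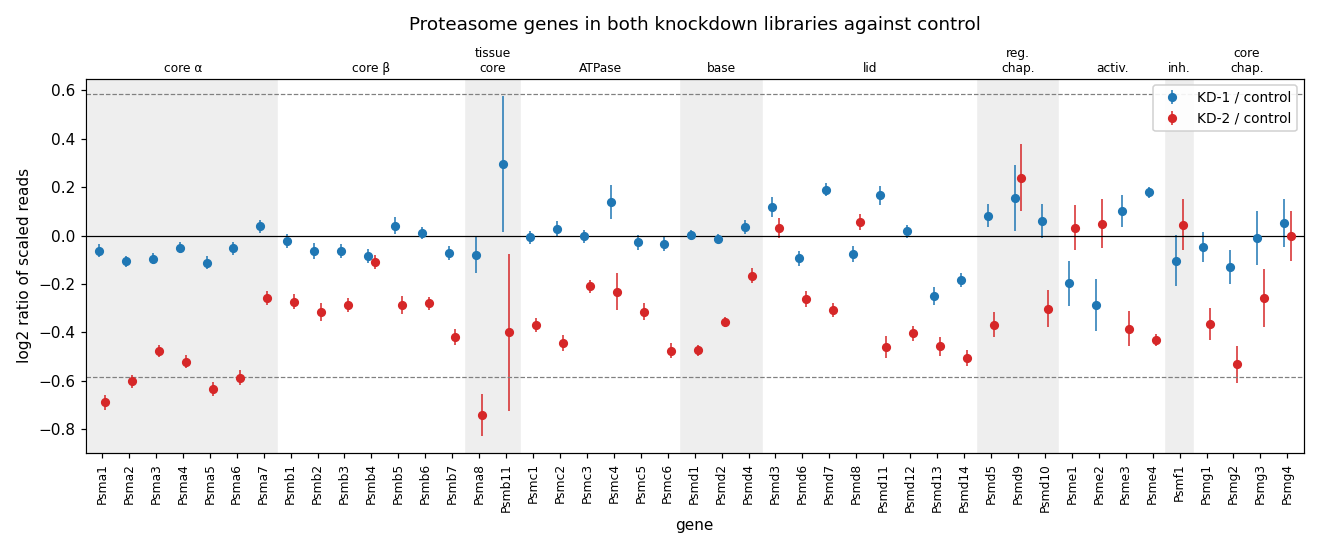
Log2 ratio of scaled reads (upper-quartile normalization) in KD-1 and KD-2 against control for the 45 proteasome genes, grouped by role; bars are 95% intervals that cover the counting of reads only, and dashed lines mark a fold change of 1.5. KD-1 points lie within 0.30 of 0, and KD-2 points are lower for most genes, with 6 of the 7 alpha genes below all of the 7 beta genes.

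The core and the regulatory particle were compared within each library pair, which cancels the library scaling. In KD-2 the median log2 ratio was -0.41 for the 16 core genes and -0.36 for the 17 regulatory particle genes, a difference of -0.052. Without the tissue-restricted genes Psma8 and Psmb11, this difference was -0.011. In KD-1 the medians were -0.063 for the core and -0.003 for the regulatory particle, a difference of -0.059. Ranges overlapped in each comparison: in KD-2 they spanned -0.74 to -0.11 for core genes and -0.51 to 0.06 for regulatory particle genes. In KD-2, 6 core genes lay below the lowest regulatory gene, namely Psma1, Psma2, Psma4, Psma5, Psma6 and the tissue-restricted Psma8. No Psmb gene was among them, and the share of all genes below that value was not taken.

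Within the core particle the rings differed in KD-2, a split that was examined after the values had been seen. The median log2 ratio was -0.59 for the 7 alpha genes and -0.29 for the 7 beta genes, a difference of -0.30. In KD-1 this difference was 0.002. Psma1 (GRCm38 chr7:114264606-114276118) had 18754 control, 21050 KD-1 and 12521 KD-2 reads, and its log2 ratio was -0.06 (KD-1) and -0.69 (KD-2, interval -0.72 to -0.66). Psma5 (chr3:108256926-108279974) had 21447, 23245 and 14879 reads, and was at -0.63 in KD-2. Psma2 (chr13:14613240-14674236) had 28856, 31418 and 20476 reads, and was at -0.60. Each of them was near control in KD-1 (the lowest was Psma5 at -0.11) and past 1.5-fold in KD-2.

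Psma6 (chr12:55384222-55418454) had 19294 control, 21799 KD-1 and 13835 KD-2 reads, with a log2 ratio of -0.59 in KD-2. Psma1 and Psma6 share no 50-base word with transcripts of other genes. Psma3 and Psma4 were at -0.48 and -0.52 in KD-2. Psma7 was the exception among alpha genes, with 19426 control, 23368 KD-1 and 17515 KD-2 reads, and a log2 ratio of -0.26 in KD-2. Psma8, which is not part of the 7 general alpha genes, was the lowest member in KD-2, at -0.74 (interval -0.83 to -0.65). Psma1, Psma2, Psma5, Psma6 and Psma8 passed 1.5-fold. With TMM normalization or DESeq2's size factors, Psma1, Psma5 and Psma8 did, and by library totals none did.

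Beta genes, catalytic and structural, were closer to control in KD-2 than all of the general alpha genes but Psma7. Psmb5 (chr14:54614119-54618022), which holds the chymotrypsin-like activity, had 12476 control, 15043 KD-1 and 11012 KD-2 reads, and its log2 ratio was 0.04 (KD-1) and -0.29 (KD-2, interval -0.32 to -0.25). Psmb6 (chr11:70525367-70527858), which holds the caspase-like activity, had 24092, 28480 and 21382 reads, and was at 0.01 and -0.28. Psmb7 (chr2:38588036-38644087), which holds the trypsin-like activity, had 17057, 19029 and 13740 reads, and was at -0.07 (KD-1) and -0.42 (KD-2), the lowest of the beta genes. Psmb4, a structural subunit, was the closest to control of them in KD-2, at -0.11, with 17515, 19366 and 17490 reads. The structural genes Psmb1, Psmb2 and Psmb3 lay between -0.32 and -0.27. All 7 beta genes were thus below control in KD-2, though by library totals, which shift KD-2 by 0.16, Psmb4 would lie above it. The ratios of Psmb5 and Psmb6 in KD-1 turned to -0.024 and -0.053 with DESeq2's size factors.

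All 6 ATPases were below control in KD-2, between -0.47 for Psmc6 and -0.21 for Psmc3, with a median of -0.34. Psmd1 and Psmd2, the large scaffold subunits of the base, were at -0.47 and -0.36, and Psmd4, a ubiquitin receptor, was at -0.17. The lid was the most spread group of the regulatory particle. It spanned -0.51 for Psmd14 to 0.06 for Psmd8, and 6 of its 8 genes were lower. Psmd8 (chr7:29174188-29180701) had 15090 control, 16783 KD-1 and 16893 KD-2 reads, with a log2 ratio of -0.08 (KD-1) and 0.06 (KD-2). Psmd3 was at 0.03 in KD-2, with 8543, 10869 and 9402 reads. Both genes lie outside of the range of the remaining lid genes, whose highest value was -0.26 for Psmd6.

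Assembly chaperones varied between genes. Among the chaperones of the core particle, Psmg1 and Psmg2 were at -0.37 and -0.53 in KD-2, and Psmg3 and Psmg4 were at -0.26 and -0.002. Psmd5 and Psmd10, chaperones of the base, were at -0.37 and -0.30 in KD-2, and at 0.08 and 0.06 in KD-1. Psmd9, a further chaperone of the base, had 769 control, 1003 KD-1 and 978 KD-2 reads, and was the highest member in KD-2 at 0.24 (interval 0.10 to 0.38).

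Activators were split by type. Psme1 and Psme2, which form the interferon-inducible activator, were lower in KD-1, while their intervals in KD-2 include 0. Psme1 had 1806 control, 1845 KD-1 and 1990 KD-2 reads, with log2 ratios of -0.20 and 0.03. Psme2 had 1461, 1404 and 1629 reads, with log2 ratios of -0.29 and 0.05. Psme3, a nuclear activator subunit, and Psme4 went the other way, at 0.10 and 0.18 in KD-1 and at -0.38 and -0.43 in KD-2. Psmf1, an inhibitor of the core particle, was at -0.10 and 0.05, with counting intervals that include 0.

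Of the 45 members, 4 (Psme1, Psme2, Psmf1 and the lid gene Psmd8) had their lowest level in KD-1 and their highest in KD-2, which is 8.89%, compared to 19.9% of all genes. The fibroblast markers had the same order, since 10 of 10 were below control in KD-1 and 10 of 10 above it in KD-2. The excluded gene Psmb8, which interferon induces, had 42 control, 24 KD-1 and 80 KD-2 reads, and Psmb9 had 35, 25 and 39. Psmb10 was lower in both, at -0.34 (KD-1) and -0.35 (KD-2). The part of feeder cells in these values was not tested.

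The comparisons above share the control library. KD-1 and KD-2 were also compared directly, without the control library. The median log2 ratio of KD-1 to KD-2 was 0.34 for the members and 0.12 for all genes, and 5 of 45 members were lower in KD-1, compared to 41.1% of all genes. With other scalings 7 or 8 members were lower, while the median of all genes lay between -0.043 (library totals) and 0.066 (TMM). By 1.5-fold, 5 members were higher in KD-1 and 0 were lower, compared to 13.9% of all genes higher and 16.2% lower. Beyond a log2 ratio of 0.32, 25 were higher and 1 was lower, compared to 33.5% and 24.8% of all genes. The 5 genes past 1.5-fold were Psmb11 at 0.69, Psma8 at 0.66, Psma1 at 0.63, Psmd11 at 0.63 and Psme4 at 0.61. Psme2, Psme1, Psmf1, Psmd8 and Psmd9 had the lower level in KD-1, at -0.34, -0.23, -0.15, -0.13 and -0.085. The core and regulatory medians, at 0.37 and 0.34, differed by 0.022. This difference turned to -0.0056 without Psma8 and Psmb11, and was 0.073 without the 13 members with more than 10% shared 50-base words.

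KD-1 and KD-2 were then tested as a pair. The quasi-likelihood test of edgeR, with 1 residual degree of freedom, takes its spread from this pair alone. It called 0 of 45 members at an adjusted p under 0.05, and 0 had an unadjusted p under 0.05. Over all genes, 0.00600% were called and 1.27% had an unadjusted p under 0.05. DESeq2's Wald test likewise called 0 members (0.0120% of all genes), with 0 at an unadjusted p under 0.05 (0.516% of all genes). The fitted log2 fold change had a median of -0.14 over the members and lay between -0.37 for Psma8 and 0.20 for Psmd9. That median was -0.36 without KD-1 and -0.023 without KD-2. The lowest unadjusted p of edgeR's quasi-likelihood test among members was 0.373, for Psma8 (adjusted p = 1.00). Nup153 itself, which both shRNAs lower, was not called by edgeR's quasi-likelihood test either, although its unadjusted p was under 0.05. The absence of calls thus says little about the members.

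The GC content of the transcript, which was examined after the values had been seen, moved with the ratios in KD-2. Across the 45 members, Pearson's r between GC content and log2 ratio in KD-2 was 0.64 (Spearman's rho 0.73), and across 14850 genes it was 0.35 (rho 0.35). In KD-1 it was 0.10 across members (rho 0.17). These correlations are across genes of the same libraries, which are not independent replicates. Among genes of low GC content (up to 47.1%), the median log2 ratio in KD-2 was -0.22 for all 4950 genes and -0.48 for 13 members. In the middle band (up to 53.4%) it was -0.049 for all genes and -0.36 for 21 members. Above that it was 0.24 for all genes and -0.23 for 11 members. The members lay lower than all genes within each band. Alpha genes other than Psma7 had GC contents of 39.4% to 49.2%, Psma7 had 51.3%, and the beta genes had 48.7% to 56.6%, so that ring and GC content moved together. The part of GC content in the difference between the rings was not tested.

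Genes of the same pathway outside of the Psm symbols were examined as lists. Of 8 further subunits and assembly factors, 7 were found by symbol. In KD-1, 0 of these passed 1.5-fold in either direction, compared to 8.58% of all genes higher and 5.65% lower. In KD-2 it was likewise 0, compared to 17.0% and 10.2%. Their median in KD-2 was -0.42, and 6 of 7 were lower, compared to 51.7% of all genes. Usp14, a deubiquitinase bound to the base, had 4463 control, 5892 KD-1 and 3222 KD-2 reads, and was at -0.58 in KD-2. Compared directly, Usp14 was the higher in KD-1, with a log2 ratio to KD-2 of 0.75. Pomp, which matures the core particle, and Sem1 (Shfm1 in the counts), a small lid subunit, were at -0.42 and -0.43 in KD-2, and Adrm1, a ubiquitin receptor, was at 0.07.

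NFE2L1, the transcription factor that raises proteasome genes when proteasome activity is short, was slightly higher in both. Nfe2l1 had 6920 control, 8689 KD-1 and 8389 KD-2 reads, with log2 ratios of 0.10 and 0.17. Of the 7 genes of this list, 1 was higher by 1.5-fold in KD-2, compared to 17.0% of all genes. It was Mafk, a small Maf partner of such factors, with 1542, 1591 and 3167 reads and a log2 ratio of 0.93. Ngly1, the glycanase that processes NFE2L1, was at -0.44 (KD-1) and 0.24 (KD-2), and differed between the knockdowns by a log2 ratio of -0.68 (KD-1 to KD-2).

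Of the 5 ubiquitin and E1 genes examined, 1 was lower by 1.5-fold in KD-2, compared to 10.2% of all genes. Rps27a, which encodes ubiquitin fused to a ribosomal protein, had 127510 control, 142200 KD-1 and 81537 KD-2 reads, with a log2 ratio of -0.75 in KD-2. In KD-1 it was at -0.07, and between the knockdowns (KD-1 to KD-2) its log2 ratio was 0.68. Of the 10 shuttle factors and segregase genes, 0 passed 1.5-fold in KD-1 or KD-2, against the same shares of all genes. Of these 10 genes, Ubqln2, a shuttle that brings substrates to the proteasome, was at 0.51 (KD-1) and -0.26 (KD-2). Between KD-1 and KD-2 it alone passed 1.5-fold. Thus 1 of 10 was higher in KD-1 and 0 were lower, compared to 13.9% and 16.2% of all genes. In KD-2 all 10 of them lay below control (median -0.19), as did 51.7% of all genes. Of these, Zfand2a at -0.003 and Nploc4 at -0.023 had intervals that include 0 and lay within the shift of 0.041 that TMM normalization gives. Zfand5 at -0.055 also lay within the shift of 0.16 by library totals.

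**Figure D3:**
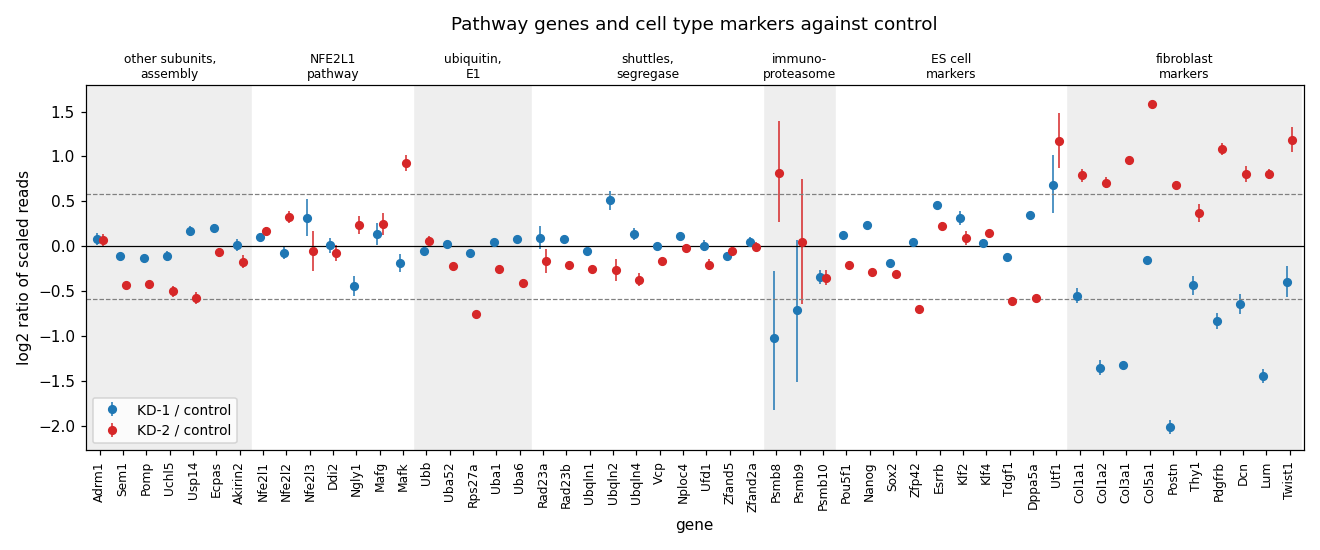
Log2 ratio of scaled reads in KD-1 and KD-2 against control for pathway genes without a member symbol, the immunoproteasome genes, and markers of ES cells and fibroblasts; bars are 95% intervals that cover the counting of reads only, and dashed lines mark a fold change of 1.5. Fibroblast markers lie below 0 in KD-1 and above 0 in KD-2, and most subunits and shuttle factors lie below 0 in KD-2.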

How the data were processed

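RNA-Seq counts of 3 libraries (control, KD-1, KD-2) were used. Per the submitters' processing notes, the authors trimmed reads with Trim Galore 0.4.1, mapped them with TopHat2 2.1.1 to mm10 (GRCm38), and deposited raw read counts per gene symbol, without normalization. The submitters' processing notes name HTSeq, while the methods name featureCounts with a filter on mapping quality. The spike-in correction of the study (RUVseq) was not used here. Reads not assigned to 1 gene made up 23.0% to 25.6% of all lines and were left out.

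Scaling factors came from upper-quartile normalization in edgeR 4.0.16 (R 4.3.3). Log2 ratios used a pseudocount of 0.5 reads and were taken over genes averaging 10 reads or more. Intervals of 95% are exact binomial (Clopper-Pearson) intervals of the split of reads between libraries, and cover counting error only. Both knockdowns were tested against control with edgeR's quasi-likelihood test, Benjamini-Hochberg adjusted, and with DESeq2 1.42.0. The tests were first run on simulated data.

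Gene models were from GENCODE M21, in which 23379 gene symbols matched. Named in full were Nup153, the catalytic subunits, the 4 highest and the 4 lowest members of each comparison, and listed pathway genes past 1.5-fold. A listed gene is not reported here. Members and lists were chosen with earlier results of these data known. Python 3.11.15 was used. Alternatives were other scalings, filters, pseudocounts and fold thresholds.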

Additional observations from a re-analysis of the deposited data

How the results depend on the processing

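The median log2 ratio of the members was -0.089 in KD-1 with DESeq2's size factors. In KD-2 it was -0.32 with TMM, -0.32 with DESeq2's size factors and -0.20 with library totals. For KD-1 against KD-2 it was 0.29, 0.24 and 0.18 under the same settings. Members past 1.5-fold in KD-2 numbered 3 with TMM, 3 with DESeq2's size factors and 0 with library totals, 23 beyond a log2 ratio of 0.32 and 0 past 2-fold. For KD-1 against KD-2 they numbered 2, 1, 0, 26 and 0. The difference of core and regulatory medians in KD-2 was -0.011 without Psma8 and Psmb11, and for KD-1 against KD-2 it was -0.0056 without these genes and 0.073 without the 13 members with more than 10% shared 50-base words, settings chosen after seeing the data. With both knockdowns against control, the median of the members was -0.14, and it was -0.36 without KD-1 and -0.023 without KD-2, values with no test. For the medians, counts and differences of single comparisons, the pseudocount of 5 reads and no filter kept each direction and moved no count by over 1.5 times. No paired analysis was possible because each condition has 1 library.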
